A study of Mus musculus with 50 samples.

Results

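A set of 9 genes whose products modify and fold collagen chains in the endoplasmic reticulum was followed in mouse hearts. They are the prolyl 4-hydroxylase subunits P4ha1, P4ha2 and P4hb, the lysyl hydroxylases Plod1, Plod2 and Plod3, the prolyl 3-hydroxylase P3h1 with its partner Crtap, and Serpinh1, which encodes the collagen chaperone HSP47. They were chosen by name for these roles, with earlier results of these data known. The set makes up 9 of the 35717 genes in the expression table. All 9 reached an FPKM (the fragment count of a gene divided by its length and by library depth) of at least 1 in at least 5 libraries and so are among the 11628 genes tested.

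The study measured poly(A) RNA of the left ventricle in 50 mice of C57BL/6J background, 40 weeks old, after a 21 day infusion. Tg mice overexpress LARP6, an RNA-binding protein known to attach to collagen I and III messenger RNAs, and the title of the series calls the overexpression cardiomyocyte-specific. WT mice are their littermates. The series addresses whether LARP6 in cardiomyocytes alters heart dysfunction and interstitial fibrosis under angiotensin II (Ang II), the vasoconstrictor peptide used to load the heart. The groups are 13 Tg mice given Ang II (1000 ng per minute per kg of mouse), 12 Tg mice given sterile saline, 14 WT mice given the same dose of Ang II and 11 WT mice given saline, with both sexes in each. The promoter of the transgene and the number of founder lines are not given in the sources used here.

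As background, collagen chains are hydroxylated before they wind into a triple helix. Prolyl 4-hydroxylase makes the 4-hydroxyproline that keeps the helix stable at body temperature; its alpha subunits hold the active site, and its beta subunit, protein disulfide isomerase, also works on many other proteins. Lysyl hydroxylases prepare lysines for sugar attachment and for the cross-links of mature fibres, the complex of P3h1 and Crtap modifies single prolines, and HSP47 binds the finished helix until it leaves the endoplasmic reticulum. In the heart these steps are known mainly from fibroblasts, the cells that make most interstitial collagen.

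Total counts per library ran between 53900000 and 91600000, rounded to 3 digits. Larp6 had at least 443 scaled FPKM in every Tg library and at most 63.5 in every WT library but 1. That library, number 329 among the WT males given Ang II, held 1000 scaled FPKM, and its column in the table bears Tg letters, whereas library 847 of the Tg males given Ang II bears WT letters and held 1120. Both were kept under their labels. Larp6 in library 847 matched its label. The WT Ang II group includes 1 library, 329, with Larp6 at the Tg level. Scaled FPKM here is the authors' FPKM divided by 1 factor per library that sets the typical gene equal between libraries. In bulk tissue, fewer cells of a type and less RNA per cell cannot be told apart.

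The 9 genes spanned a wide range of levels but varied little between libraries. Over all 50 libraries P4hb averaged 58.2 ± 5.14 scaled FPKM and Serpinh1 54.4 ± 10.7 (SD, n = 50 for each gene). P4ha1 followed at 12.1 ± 2.19, Plod1 at 11.1 ± 1.18 and Crtap at 10.4 ± 1.12. P4ha2 stood at 7.08 ± 0.746, Plod3 at 6.17 ± 0.663, Plod2 at 4.93 ± 0.667 and P3h1 at 3.12 ± 0.309. In this order, P4hb and Serpinh1, P4ha1 and Plod1, and Plod1 and Crtap differed by less than the larger of their SDs. The highest library held 1.46 times the lowest for P3h1 and 2.71 times for Serpinh1, the extremes among the 9 genes, against 4.81 times for Col1a2 and 9.78 times for Col3a1. Counting error was small beside these spreads, at 0.890% of the mean for P4hb and 3.31% for P3h1.

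**Figure D1:**
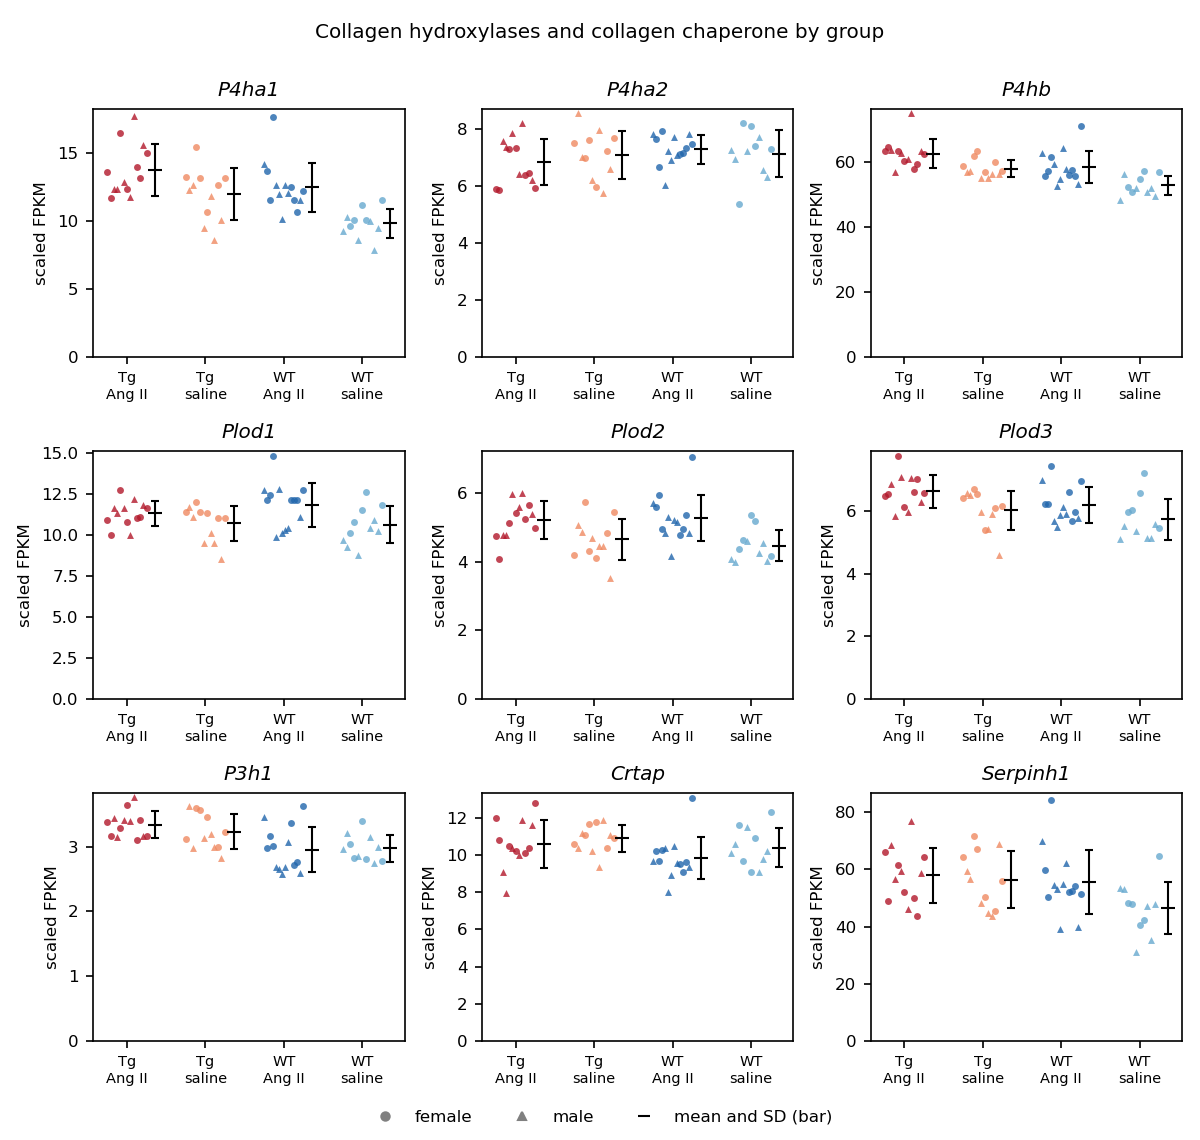
Scaled FPKM of the 9 genes in each of 50 libraries, by group (x axis), with circles for females and triangles for males; the black tick and bar are mean and SD. P4ha1 averaged 13.8, 12.0, 12.5 and 9.85 in Tg Ang II, Tg saline, WT Ang II and WT saline hearts, while P4ha2 averaged between 6.83 and 7.28 in all 4 groups.

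Positions are given on GRCm38. Of the table's genes found in GENCODE M21 on that assembly, 91.5% had an identical start and end there. P4ha1 lies on chromosome 10 (59323296 to 59373304, plus strand), P4ha2 (54100095 to 54131662, plus) and P4hb (120560298 to 120573253, minus) on chromosome 11, and Serpinh1 on chromosome 7 (99345376 to 99353239, minus). Plod1 (147909753 to 147936767, minus) and P3h1 (119232915 to 119248975, plus) lie on chromosome 4, Plod2 (92542223 to 92608428, plus) and Crtap (114375134 to 114390675, minus) on chromosome 9, and Plod3 (136987019 to 136996648, plus) on chromosome 5. Exons of Plod3 overlap those of Znhit1 on the opposite strand and Mir702 on its own, and exons of Plod2 overlap Gm38391 on the opposite strand. The strand setting of the counting is not given in the sources used here, so fragments of Plod2, Plod3 and these neighbours cannot be told apart.

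The 250 bases before the start site are shown for the 3 genes that rose in Tg hearts under saline, from RefSeq on GRCm38.p6, read 5′ to 3′ along the gene. Capitals mark ACGTG and its variant with G as the first base, GCGTG, both cores of the hypoxia response element. They also mark CCAAT, a box found in many promoters. A copy on the other strand is shown as its reverse complement.
P4ha1: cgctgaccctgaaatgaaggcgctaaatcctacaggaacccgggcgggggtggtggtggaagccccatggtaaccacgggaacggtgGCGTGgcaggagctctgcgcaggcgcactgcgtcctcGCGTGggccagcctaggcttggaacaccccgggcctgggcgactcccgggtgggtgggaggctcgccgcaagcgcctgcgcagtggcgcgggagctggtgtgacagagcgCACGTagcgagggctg
P4hb: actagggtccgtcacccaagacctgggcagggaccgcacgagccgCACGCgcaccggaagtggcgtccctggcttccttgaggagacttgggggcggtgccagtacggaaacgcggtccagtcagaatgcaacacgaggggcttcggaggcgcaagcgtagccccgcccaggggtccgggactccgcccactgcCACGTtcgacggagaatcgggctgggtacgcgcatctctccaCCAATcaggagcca
Serpinh1: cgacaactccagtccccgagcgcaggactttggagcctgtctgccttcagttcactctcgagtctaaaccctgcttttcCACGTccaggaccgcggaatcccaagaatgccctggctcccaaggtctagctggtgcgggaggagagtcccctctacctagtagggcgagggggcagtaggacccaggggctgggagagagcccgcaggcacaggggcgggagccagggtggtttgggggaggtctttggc
These windows are chr10:59323046-59323295 on the plus strand, chr11:120573254-120573503 on the minus strand and chr7:99353240-99353489 on the minus strand. P4ha1 holds GCGTG in 2 places, and nearest to the start, 12 to 16 bases before it, a copy of ACGTG. P4hb holds a copy of GCGTG far from the start, a copy of ACGTG 52 to 56 bases before it and a copy of CCAAT 10 to 14 bases before it. Serpinh1 holds a single ACGTG, 167 to 171 bases before the start. Promoters of 8 of the 9 genes, all but Plod2, were matched. Among those 8, ACGTG occurred in 6, GCGTG in 7 and CCAAT in 3, counting both strands and every start site listed. Of the 8453 tested genes with a promoter in the same table, 25.7% had ACGTG, 50.4% GCGTG and 40.0% CCAAT. Neither GAANNTTC, a core of the heat shock element, nor the endoplasmic reticulum stress element (CCAAT, 9 bases, CCACG) was found in the 8 genes, against 5.90% and 0.142% of the tested genes.

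Without Ang II, the transgene went with modestly higher P4ha1, P4hb and Serpinh1 and far higher collagen. By edgeR's quasi-likelihood test with Benjamini-Hochberg adjustment over all 11628 genes, which also gives every adjusted p below unless another tool is named, 3 of the 9 genes rose in Tg hearts and none fell. In either direction 40.6% of all genes tested passed that threshold, and 3 of 9 is no larger a share than that. Counted by direction, 2376 of the 11628 were called higher and 2344 lower, while all 3 calls among the 9 genes were higher. The median log2 fold change was 0.06 over the 9 genes and 0.00 over all genes tested.

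P4ha1, an active-site subunit of prolyl 4-hydroxylase, had 8.60 to 15.5 scaled FPKM (median 12.5) in Tg saline hearts, against 7.86 to 11.6 (median 10) in WT saline hearts. The groups overlapped, but 8 of the 12 Tg hearts lay above the highest WT heart, and the log2 fold change was 0.27 ± 0.08 (SE, adjusted p = 0.0047). P4hb had 55.2 to 63.3 (median 57.2) in Tg saline and 48.4 to 57.2 (median 52.1) in WT saline hearts, with all 12 Tg hearts above the WT median (0.13 ± 0.04, adjusted p = 0.0085). The other alpha subunit, P4ha2, had a median of 7.11 in Tg saline and 7.27 in WT saline hearts, and its log2 fold change of -0.01 had a 95% interval of -0.13 to 0.11.

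Serpinh1 had 43.6 to 71.9 scaled FPKM (median 56.3) in Tg saline hearts and 31.1 to 64.6 (median 48.0) in WT saline hearts, a log2 fold change of 0.27 ± 0.11 (adjusted p = 0.044). Its groups overlapped widely, with 9 of 12 Tg hearts above the WT median. This call ended, with adjusted p up to 0.095, without any 1 of the Tg saline libraries 153, 158, 160, 162, 237 and 965 or of the WT saline libraries 239, 332, 488, 718, 719 and 776. It also ended with genes of low level kept in (0.085) and with a term for runs of neighbouring library numbers (log2 fold change 0.19, adjusted p = 0.10).

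The remaining genes did not pass under saline. P3h1 was nearest, with 2.83 to 3.63 scaled FPKM in Tg saline and 2.74 to 3.39 in WT saline hearts (log2 fold change 0.12 ± 0.05, adjusted p = 0.070). It passed without any 1 of libraries 159, 716, 718 and 965 (adjusted p down to 0.029). Crtap and Plod3 stood at 0.06 each, Plod2 at 0.05 and Plod1 at 0.01. Scaling by library size alone put the median of all genes at 0.14 and the share of higher genes among all calls at 84.1%, against 50.3% here; under it 8 of the 9 genes were called higher, and P4ha2 stood at 0.13, close to that shift.

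The 3 collagen genes set beside them encode the chains of collagen I (Col1a1, Col1a2) and collagen III (Col3a1). Their summed level was 28.1 to 79.6 scaled FPKM (median 37.4) in Tg saline hearts and 14.9 to 30.3 (median 19.2) in WT saline hearts. Col1a1 rose by 0.88 ± 0.18 on the log2 scale (adjusted p = 0.00013), Col1a2 by 0.82 ± 0.15 (2.4e-05) and Col3a1 by 0.92 ± 0.25 (0.0024).

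Ang II in WT hearts went with higher P4ha1, Plod2, Plod1 and P4hb. Among the comparisons of gene level between groups, this one had the most calls among the 9 genes, 4 higher and none lower. In either direction 18.6% of all genes tested were called, 1129 higher and 1031 lower. The median log2 fold change was 0.15 over the 9 genes and 0.00 over all genes. The 4 calls held in all 9 alternative settings and without any single library. This comparison and the one under saline share the WT saline hearts.

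P4ha1 had 10.2 to 17.7 scaled FPKM (median 12.2) in WT Ang II hearts, against 7.86 to 11.6 (median 10) in WT saline hearts. All 14 Ang II hearts exceeded the saline median, 9 exceeded the highest saline heart, and the log2 fold change was 0.34 ± 0.07 (adjusted p = 0.0010). P4hb had 52.6 to 71.0 (median 57.4) in WT Ang II and 48.4 to 57.2 (median 52.1) in WT saline hearts, again with all 14 above the saline median (0.15 ± 0.04, adjusted p = 0.0063). P4ha2 stood at 6.05 to 7.94 (median 7.29) in WT Ang II and 5.37 to 8.20 (median 7.27) in WT saline hearts, and at 0.03 ± 0.06 did not pass.

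Among the lysyl hydroxylases, Plod2, which in bone and skin acts on the ends of collagen chains where cross-links form, had 4.17 to 7.06 scaled FPKM (median 5.20) in WT Ang II hearts and 3.99 to 5.37 (median 4.36) in WT saline hearts. In all, 13 of the 14 Ang II hearts lay above the saline median (log2 fold change 0.23 ± 0.07, adjusted p = 0.0089). Plod1 had 9.85 to 14.8 (median 12.1) in WT Ang II and 8.76 to 12.6 (median 10.4) in WT saline hearts, with 10 of 14 above the saline median (0.16 ± 0.05, adjusted p = 0.019). Plod3, which also attaches sugars to hydroxylysine, did not pass at 0.11 ± 0.05 (adjusted p = 0.14).

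Serpinh1 had 39.0 to 84.2 scaled FPKM (median 53.6) in WT Ang II and 31.1 to 64.6 (median 48.0) in WT saline hearts, and its log2 fold change of 0.25 ± 0.11 did not pass (adjusted p = 0.091). It passed without WT saline library 968 (0.31, adjusted p = 0.038). P3h1 at -0.01 ± 0.05 and Crtap at -0.09 ± 0.06 did not pass either, and 4 of 14 Ang II hearts exceeded the saline median of Crtap. Over the same comparison Col1a1 rose by 0.94 ± 0.18, Col3a1 by 0.90 ± 0.24 and Col1a2 by 0.72 ± 0.15 (adjusted p = 0.00018, 0.0060 and 0.00046).

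**Figure D2:**
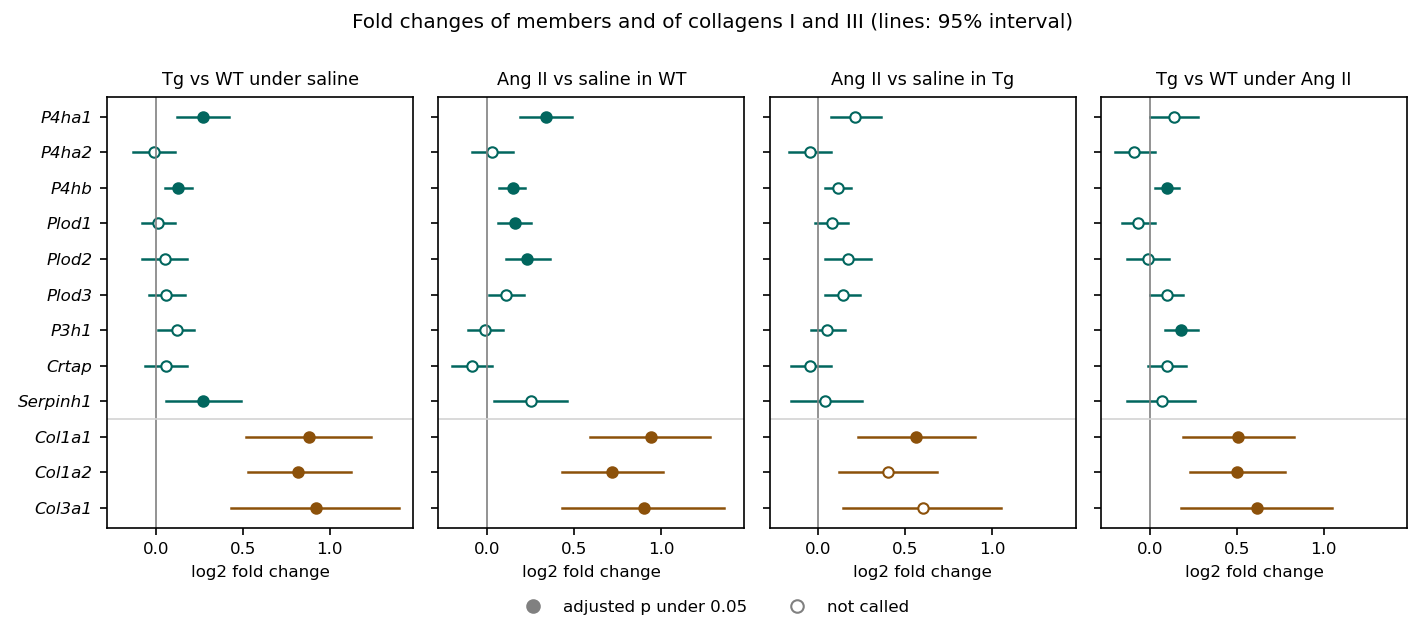
Log2 fold changes (x axis) of the 9 genes and of 3 collagen genes (rows) in 4 comparisons, with 95% intervals; filled points passed an adjusted p of 0.05. The filled points of the 9 genes lie between 0.10 and 0.34, and those of the collagen genes between 0.50 and 0.94.

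In Tg hearts, Ang II changed none of the 9 genes past the threshold, which 8.93% of all genes tested passed. Their median log2 fold change was 0.08, against -0.01 over all genes. At an unadjusted p under 0.05 there were 4, P4hb, P4ha1, Plod3 and Plod2; DESeq2 called 2 (P4ha1 and P4hb) and limma-trend 0. P4hb had 57.0 to 75.1 scaled FPKM (median 62.7) in Tg Ang II hearts and 55.2 to 63.3 (median 57.2) in Tg saline hearts, with 12 of 13 above the saline median (log2 fold change 0.11 ± 0.04, adjusted p = 0.051). P4ha1 had 11.7 to 17.8 (median 13.2) in Tg Ang II and 8.60 to 15.5 (median 12.5) in Tg saline hearts (0.21 ± 0.07, adjusted p = 0.059). Plod2 stood at 0.17 ± 0.06 (0.088), Plod3 at 0.14 ± 0.05 (0.080) and Serpinh1 at 0.04 ± 0.10 (0.86). Leaving out 1 library gave between 0 and 3 calls, so P4hb and P4ha1 lie at the threshold. Of the collagen genes Col1a1 rose, by 0.56 ± 0.17 (adjusted p = 0.032). It no longer passed without any 1 of the Tg libraries 237, 299, 528, 715 and 716 (adjusted p up to 0.092). Col1a2 at 0.40 ± 0.14 (0.070) and Col3a1 at 0.60 ± 0.23 (0.099) did not pass, although both did without Tg saline library 162 (0.025 and 0.022), and Col1a2 also did without any 1 of 297, 530 and 779.

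The response to Ang II did not pass the test of a difference between Tg and WT hearts for any of the 9 genes, with 0.043% of all genes passing; none had an unadjusted p under 0.05, and DESeq2 and limma-trend called 0 as well. The difference in log2 fold change was -0.21 for Serpinh1 (95% interval -0.50 to 0.09) and -0.13 for P4ha1 (-0.33 to 0.08), and ran up to 0.07 for P3h1. The data therefore allow for responses that differ by these intervals.

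Where both genotypes had Ang II, P3h1 and P4hb were higher in Tg hearts, 2 of 9 genes. In either direction 32.8% of all genes tested were called, 1905 higher and 1909 lower. The median log2 fold change was 0.10 over the 9 genes and -0.01 over all genes. P3h1, the catalytic part of the prolyl 3-hydroxylase complex, had 3.10 to 3.77 scaled FPKM (median 3.38) in Tg Ang II hearts and 2.58 to 3.63 (median 2.86) in WT Ang II hearts. All 13 Tg hearts lay above the WT median, and P3h1 rose by 0.18 ± 0.05 (adjusted p = 0.0025). Its partner Crtap had 7.96 to 12.8 (median 10.4) in Tg Ang II and 8.01 to 13.1 (median 9.64) in WT Ang II hearts, and at 0.10 ± 0.06 did not pass (adjusted p = 0.18), though it did without WT library 779 (0.14, adjusted p = 0.046).

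P4hb had 57.0 to 75.1 in Tg Ang II and 52.6 to 71.0 in WT Ang II hearts (0.10 ± 0.04, adjusted p = 0.036). That call ended, with adjusted p up to 0.12, without any 1 of the Tg libraries 154, 238, 299 and 715 or the WT libraries 161, 163, 296, 328, 720, 721, 722 and 778. P4ha1 at 0.14 ± 0.07 did not pass (0.13), but did without library 165 of the WT females (0.19, adjusted p = 0.025). Serpinh1 at 0.07, Plod1 at -0.07, Plod2 at -0.01, Plod3 at 0.10 and P4ha2 at -0.09 did not pass, while Col3a1, Col1a1 and Col1a2 rose by 0.62, 0.51 and 0.50 on the log2 scale. The Col3a1 call ended without any 1 of the Tg libraries 154 and 715 or the WT libraries 328, 720, 721 and 778 (adjusted p up to 0.092), and the Col1a1 call without library 715 (0.050).

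Across the 4 groups, 2 lysyl hydroxylases were higher in females than in males, 2 of 9 genes. In either direction 4.42% of all genes tested were called, 216 higher and 298 lower in females. The median log2 difference was 0.07 over the 9 genes and 0.00 over all genes. Plod1 averaged 11.3 ± 0.365 scaled FPKM in female and 10.1 ± 1.18 in male Tg saline hearts (SD, n = 6 each), and 11.4 ± 0.928 in female (n = 5) and 9.87 ± 0.793 in male WT saline hearts (n = 6). In Tg Ang II hearts the means were 11.2 ± 0.817 in females and 11.4 ± 0.734 in males, so the order did not hold there. Its log2 difference over all groups was 0.13 ± 0.03 (adjusted p = 0.016). Plod3 differed by 0.12 ± 0.04 (adjusted p = 0.047), a call lost without any 1 of 33 of the 50 libraries.

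The share of P4ha1 among both alpha subunits follows from these levels. P4ha1 made up 66.8 ± 3.52% of the summed scaled FPKM of P4ha1 and P4ha2 in Tg Ang II hearts (SD, n = 13) and 62.6 ± 2.80% in Tg saline hearts (n = 12). In WT hearts it made up 63.0 ± 2.79% with Ang II (n = 14) and 58.0 ± 3.12% with saline (n = 11). The lowest Tg Ang II heart was at 62.0% and the highest WT saline heart at 64.3%, so even the outer groups overlapped; these shares were not tested. Plod1 made up between 48.8% and 50.8% of the 3 lysyl hydroxylases in the group means.

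**Figure D3:**
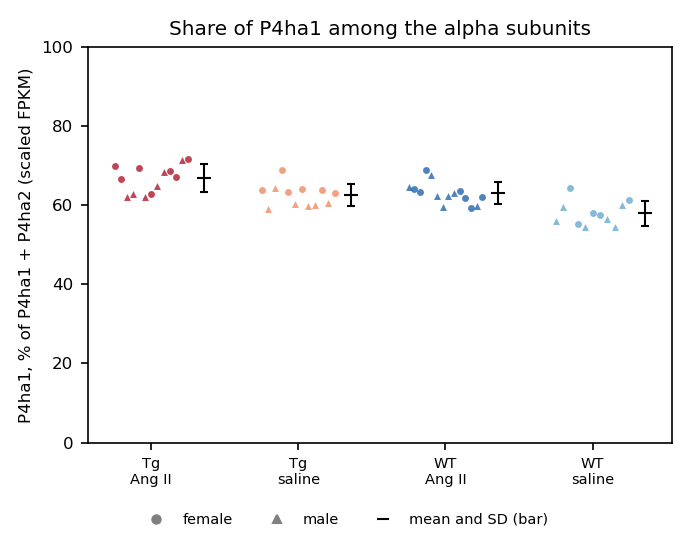
P4ha1 as a percent of P4ha1 plus P4ha2 (y axis, scaled FPKM) in each of 50 libraries by group, with circles for females, triangles for males, and black mean and SD. Group means run from 66.8% in Tg Ang II hearts to 58.0% in WT saline hearts.

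Set against the collagen transcripts, all 9 genes had a lower ratio in Tg hearts and in WT hearts given Ang II, and so did most genes in the table. For each 100 scaled FPKM of collagen I and III, Serpinh1 had 90.3 to 212 (median 145) in Tg saline hearts and 173 to 321 (median 187) in WT saline hearts. P4ha1 had 19.5 to 45.2 (median 30.7) in Tg saline and 30.6 to 67.8 (median 47.6) in WT saline hearts. By limma-trend on log2 counts, scaled by depth, minus those of collagen, all 9 ratios fell under saline, at log2 differences of -0.59 for Serpinh1 to -0.87 for P4ha2, against 91.6% of all genes lower and a median of -0.86. By construction the ratio of any gene at a fixed level is lower where collagen is higher, and the 9 genes are not set apart by this count.

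With Ang II in WT hearts all 9 ratios were lower (94.2% of all genes), with Serpinh1 at 66.0 to 263 (median 150) in WT Ang II and a median of 187 in WT saline hearts per 100 collagen. That of P4ha1 was not called without WT Ang II library 779 (adjusted p = 0.056). Within Tg hearts 6 of 9 were lower with Ang II (77% of all genes), with Serpinh1 at a median of 104 in Tg Ang II and 145 in Tg saline hearts. That count was 0 without Tg Ang II library 715, 1 without Tg saline library 716, 2 without Tg saline library 237, 3 without library 847 and 9 without Tg saline library 162; it was 4 without any 1 of 154, 326, 327, 528 and 848. Between genotypes under Ang II all 9 were lower in Tg hearts (85.2% of all genes), with Serpinh1 at 71.9 to 147 in Tg Ang II and 66.0 to 263 in WT Ang II hearts. That of P3h1 was not called without any 1 of libraries 715, 720, 721 and 778 (adjusted p up to 0.066). Median differences over all genes were -0.77 for Ang II in WT hearts, -0.52 for Ang II in Tg hearts and -0.62 between genotypes under Ang II. The test of a difference in the response of the ratio called none of the 9, at differences of 0.05 for Serpinh1 to 0.32 for P3h1, with adjusted p of 0.76 to 0.91.

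Pooled over the groups, hearts with more collagen transcript than their own group mean also had more Serpinh1, P4ha1, Crtap, P4hb and P3h1. In an edgeR fit with the 8 means of genotype, treatment and sex, 5 of the 9 genes had a slope on log2 collagen above 0, against 10% of the 11625 genes other than the 3 collagens. Serpinh1 had the steepest slope, 0.34 ± 0.07, which is 26.8% more for each doubling of collagen (adjusted p = 3.0e-04). P4ha1 followed at 0.22 ± 0.05 (adjusted p = 0.0015), then Crtap at 0.17 ± 0.04 (0.0013), P4hb at 0.11 ± 0.03 (0.0024) and P3h1 at 0.11 ± 0.04 (0.022). Plod2 at 0.12 (0.059), Plod3 at 0.09 (0.10) and Plod1 at 0.07 (0.19) did not pass, and P4ha2 stood at 0.00 ± 0.05.

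Over the 50 libraries, deviations from the group means gave Pearson's r = 0.60 and Spearman's rho = 0.62 for Serpinh1 (permutation p = 2e-05 and 1e-05, two-sided, with 1e-05 the smallest that 1e+05 permutations within groups can give). Without libraries 779 and 162, the farthest from the median of collagen, r was 0.67. P4ha1 had r = 0.54 and rho = 0.57 (permutation p = 0.00015 and 2e-05) and r = 0.58 without those libraries. For P4hb r was 0.56 and rho 0.42 (permutation p = 0.00067 and 0.0082), and r fell to 0.47 without those libraries. For P4ha2 r was -0.02 and rho -0.01 (permutation p = 0.89 and 0.95). Without the same libraries r also fell for Crtap (from 0.57 to 0.52) and P3h1 (from 0.45 to 0.35). It fell as well for Plod2 (from 0.37 to 0.20) and Plod3 (from 0.33 to 0.28). In all, 9 genes were examined in this way.

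The values of r differed between groups in size and, for some genes, in sign; the difference was not tested. For Serpinh1 r was 0.81 in Tg Ang II, 0.52 in Tg saline, 0.56 in WT Ang II and 0.61 in WT saline hearts. For P4hb it was 0.79, 0.16, 0.77 and -0.38 in the same order, and for P4ha1 0.78, 0.55, 0.50 and 0.23. For Crtap it was 0.76, 0.08, 0.76 and 0.21, and for P3h1 0.22, 0.41, 0.66 and 0.14. In WT saline hearts r was also below 0 for Plod2 (-0.64), Plod3 (-0.49), P4ha2 (-0.49) and Plod1 (-0.06). With a term for runs of neighbouring library numbers, P4ha1 (slope 0.16, adjusted p = 0.070) and P3h1 (0.13, 0.055) no longer passed and Serpinh1 stood at 0.22 (0.030). P3h1 also did not pass without WT Ang II library 159 (0.069) or 779 (0.081).

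**Figure D4:**
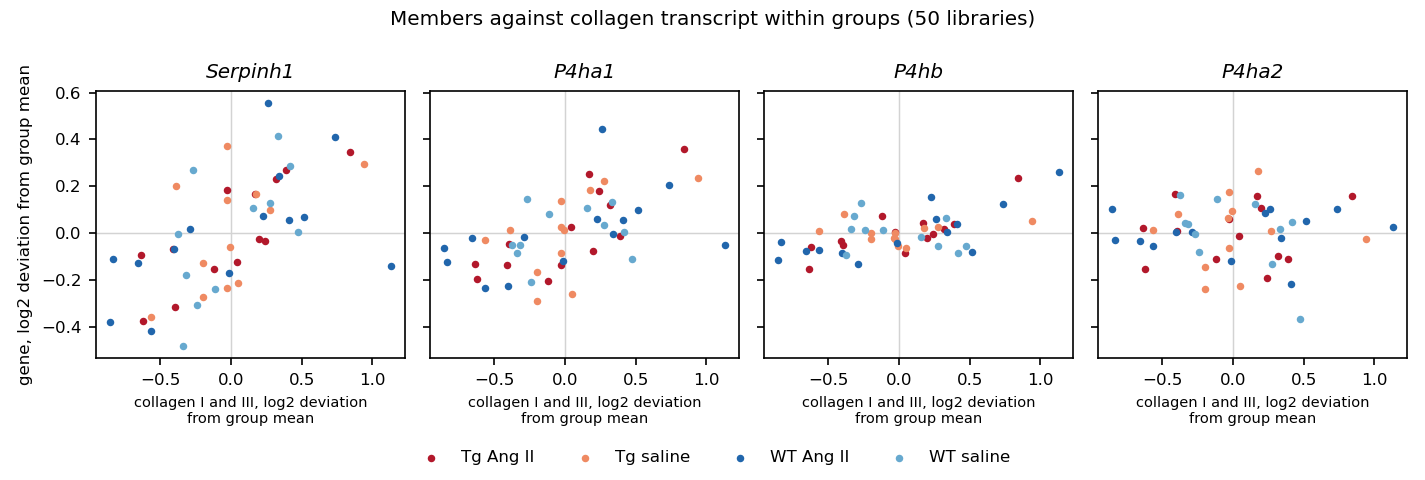
Log2 deviation of 4 genes from their group mean (y axis) against that of summed Col1a1, Col1a2 and Col3a1 (x axis) in 50 libraries, coloured by group, where each mean is that of a genotype, treatment and sex. Serpinh1 rises with collagen (r = 0.60), as do P4ha1 (0.54) and P4hb (0.56), and P4ha2 shows no slope (r = -0.02).

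The 9 genes did not move as 1 block within groups: the 36 pairwise r of their deviations ran between -0.30 and 0.66 with a median of 0.31. The tested genes most like each were picked by the highest r of these deviations over 50 libraries. For Serpinh1 they were Tuba1a, an alpha tubulin (r = 0.86), Morf4l2 and Vwa1 (0.77 each). For P4hb they were Spp1, the matrix protein osteopontin (0.82), Timp1, an inhibitor of matrix proteases (0.80), and Eno1, a glycolytic enzyme (0.77). P4ha1 was most like Egln3, an oxygen-sensing prolyl hydroxylase (0.71), Exoc5 (0.69) and Mtpn (0.68). Ppip5k1 (0.68) and Ptpn11 (0.67) were among the genes most like P4ha2.

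For Plod1 they were Nckap1 (0.73), Rapgef1 (0.69) and Ski (0.66), and for Plod2 Eps15 and Nup155 (0.67 each) and Tmem184c (0.64). Plod3 was most like Itgb1, the beta 1 integrin (0.68), Vim (0.67) and Thbs3 (0.65), and Crtap most like Ppic, a cyclophilin, and Prelid1 (0.69 each) and Selenom (0.68). For P3h1 they were Gpr153 (0.64), Lrp1 (0.62) and Col16a1 (0.61).

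Other genes of collagen folding and modification moved in both directions. Of 15 listed, 13 were tested. Under saline 5 were higher and 4 lower in Tg hearts, and with Ang II in WT hearts 3 were higher and 2 lower. Of all genes tested, 40.6% were called under saline (2376 higher, 2344 lower) and 18.6% with Ang II in WT hearts (1129 higher, 1031 lower). P3h2, another prolyl 3-hydroxylase, rose by 1.80 ± 0.16 in Tg hearts (adjusted p = 5.5e-12), far more than P3h1, and by 0.58 ± 0.15 with Ang II in WT hearts. Fkbp10, the prolyl isomerase FKBP65, fell by 0.52 ± 0.08 on the log2 scale in Tg hearts (adjusted p = 1.1e-06), and P3h4, a relative of the prolyl 3-hydroxylases that lacks their catalytic part, fell by 0.55 ± 0.10 (9.8e-06). Ppib, the cyclophilin that joins P3h1 and Crtap, rose by 0.25 ± 0.06 in Tg hearts (0.0011) and by 0.17 ± 0.06 with Ang II in WT hearts (0.039); it was singled out after its values were seen. Sparc, a matrix protein that binds collagen, rose by 0.86 ± 0.12 with Ang II in WT hearts and 0.62 ± 0.12 in Tg hearts.

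Genes of the wider secretory pathway were called in both directions under saline, where 40.6% of all genes were called. With Ang II in WT hearts 18.6% of all genes were called. Of 15 tested chaperones and disulfide isomerases of the endoplasmic reticulum, 0 were higher and 2 lower in Tg hearts under saline, Canx (calnexin, -0.21 ± 0.04, adjusted p = 1.0e-04) and Hspa5 (BiP, -0.18 ± 0.07, 0.036), and none was called with Ang II in WT hearts. Of 16 procollagen export genes 4 were higher and 3 lower in Tg hearts under saline, among them the coat protein Sec24d (0.32 ± 0.06) and the cargo receptor gene Mia2 (-0.45 ± 0.06). Kdelr3, a receptor that returns proteins to the endoplasmic reticulum, rose by 0.45 ± 0.16 in Tg hearts under saline (adjusted p = 0.017) and by 0.43 ± 0.15 with Ang II in WT hearts (0.038), where it was the single export gene called. Of 13 tested hypoxia-response genes, 0 were higher and 5 lower in Tg hearts under saline, with Egln3 at -0.63 ± 0.13, Ndrg1 at -0.35 ± 0.08 and Egln1 at -0.29 ± 0.05. With Ang II in WT hearts 3 were higher and 1 lower, and Bnip3, a mitophagy receptor, rose by 0.54 ± 0.09 (adjusted p = 3.4e-05). Among 13 tested other collagens, 9 were higher and 0 lower in Tg hearts under saline and 7 higher and 0 lower with Ang II in WT hearts.

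Markers of several cell types moved in the same comparisons, and their part in the results above was not tested. Of all genes tested, 40.6% were called for Tg against WT under saline and 18.6% for Ang II in WT hearts. Of 12 resident fibroblast markers 10 were higher and 1 lower in Tg saline hearts, where their summed level was 514 to 768 scaled FPKM, against 407 to 526 in WT saline hearts. With Ang II in WT hearts 2 were higher and 2 lower, at sums of 319 to 494 in WT Ang II hearts. Of 10 tested activated fibroblast markers, 8 were higher in Tg saline (sums of 118 to 324) than in WT saline hearts (48.9 to 86.0). In WT Ang II hearts (55.9 to 199) 7 were higher than in WT saline hearts. These sums take in all 12 listed activated markers, among them Cthrc1 and Fap, which were not tested. Cthrc1 was at 0 in 10 libraries. Macrophage markers were higher for 7 of 8 in Tg saline hearts (137 to 393, against 90.9 to 116 in WT saline) and for 1 of 8 with Ang II in WT hearts (74.7 to 212).

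Endothelial markers were lower for 8 of 8 in Tg saline hearts (88.8 to 123, against 125 to 196 in WT saline), mural markers lower for 6 and higher for 1 of 8 (108 to 141, against 156 to 203). Cardiomyocyte markers were lower for 5 and higher for 1 of 8 (7270 to 9640, against 9140 to 10400). With Ang II in WT hearts 1 endothelial and 2 mural markers were lower and 1 cardiomyocyte marker was higher. No marker other than Cthrc1 was at 0 in any library. In the 2 comparisons that follow, 32.8% of all genes tested were called for Tg against WT under Ang II and 8.93% for Ang II in Tg hearts. Under Ang II, resident fibroblast markers summed to 340 to 660 in Tg hearts, where 6 of 12 were higher, against 319 to 494 in WT hearts. All 12 activated fibroblast markers summed to 140 to 298 in Tg Ang II hearts, where 6 of 10 tested were higher than in WT Ang II hearts. Macrophage markers summed to 106 to 225 (5 of 8 higher). Endothelial markers were lower for 8 of 8 in Tg Ang II hearts (92.4 to 140, against 107 to 182 in WT Ang II). Mural markers were lower for 5 and higher for 1 of 8 (94.6 to 155, against 94.4 to 194), and cardiomyocyte markers lower for 5 of 8 (6770 to 9090, against 7730 to 10200). With Ang II in Tg hearts 6 of 12 resident fibroblast markers were lower and 4 of 10 activated ones higher than with saline; 1 mural marker was lower, 2 cardiomyocyte markers were higher, and no endothelial or macrophage marker was called.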

How the data were processed

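The authors deposited 1 table with a count column and an FPKM column per library; per the submitters' processing notes their tools were cutadapt 1.9, FastQC, HISAT2 2.0.4 and StringTie 1.3.4d. The deposited counts were whole and used as given, and the authors' FPKM values, already divided by transcript length and library depth, served for levels. The counting tool, its strand setting and the genome build are not given in the sources used here. Per the labels' protocols, poly(A) RNA was made into dUTP libraries and sequenced as paired ends.

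The 9 genes and all gene lists were chosen with earlier results of these data known. Groups came from the labels. Libraries were treated as coming from separate mice, which the labels do not spell out, and p-values measure the spread between libraries. Counts were scaled by median of ratios and tested in edgeR 4.0.16 (R 4.3.3) in 1 fit of 8 means (genotype, treatment, sex), with sexes weighted equally. Tests were two-sided, adjusted by Benjamini-Hochberg over 11628 genes that reached FPKM 1 in 5 or more libraries, and called at 0.05. Ratios to collagen used limma 3.58.1 with a prior count of 2 on log2 CPM, and slopes used edgeR. Scripts were tested on simulated data. Named genes were the 9, Larp6, the 3 collagens, up to 4 tested genes of each list with the smallest p, and the 3 genes most correlated with each of the 9, of which 1 is not reported here. Ero1a and Ero1b were matched through RefSeq synonyms. The alternatives were TMM and library-size scaling, 2 other filters, DESeq2 1.42.0, limma-trend on log2(scaled FPKM + 1) or + 0.1, a term for 10 runs of neighbouring library numbers, which the labels do not call batches, omission of libraries 329 and 847, and omission of each library; for ratios and slopes the last was chosen after seeing the data. No 2 libraries of a group were alike within counting error (lowest chi-square per gene 21.2 over 133 pairs).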

Additional observations from a re-analysis of the deposited data

Results flagged for a closer look

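Within the 8 groups of genotype, treatment and sex, 6 values of the 9 genes stood apart from the rest of their group by more than the 95% critical value of Dixon's test, among 72 sets examined; chance flags about 1 in 20 sets, which is 3.6 here. Library 165, a WT female given Ang II, was highest of 7 in P4ha1 (17.7 scaled FPKM, next 13.7), Plod1 (14.8, next 12.7) and Serpinh1 (84.2, next 59.7). Without it the response to Ang II in WT hearts was 0.29 for P4ha1 (adjusted p = 0.0025) and 0.13 for Plod1 (0.044) by edgeR, and 0.19 for Serpinh1 (0.19). Library 779, of the same group, was highest in P4hb (71.0, next 61.6) and Crtap (13.1, next 10.3), and without it P4hb stood at 0.12 (adjusted p = 0.015). It also had the most collagen transcript relative to its group. Library 159, a WT male given Ang II, was highest of 7 in Plod3 (6.99, next 6.13). No reason for these values was tested.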

How the results depend on the processing

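For Ang II in WT hearts 4 of the 9 genes were called under all 9 alternatives. For Tg against WT under saline the count of 3 became 8 with library size alone; for Tg against WT under Ang II the count of 2 became 5 with library size alone and 1 with no filter or a minimum FPKM of 5. For Ang II in Tg hearts the count of 0 became 2 with DESeq2 and 1 with TMM, the minimum FPKM of 5 or the term for library numbers. For females against males the count of 2 became 1 with no filter, the library-number term or without libraries 329 and 847. For the ratio to collagen, Ang II in Tg hearts, 6 became 3 without libraries 329 and 847. The causes were not tested.

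Omission of 1 library moved these counts between 0 and 3 (Ang II in Tg), 1 and 3 (Tg against WT under Ang II), 1 and 2 (sexes) and 0 and 9 (ratio, Ang II in Tg). The count for Tg against WT under saline ran from 2 to 4 and that for Ang II in WT from 4 to 5. The count of slopes ran from 4 to 6. The ratio counts for Ang II in WT and for Tg against WT under Ang II ran from 8 to 9. Library size alone put the share of higher genes among all calls at 80.6% for Ang II in WT (52.3% in the report), 78.4% for Tg against WT under Ang II (49.9%) and 90.8% for the sexes (42.0%), with medians of all genes at 0.06, 0.08 and 0.05.

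Signs turned for 15 uncalled values. With library size alone these were, for the sexes, Col1a1 0.04, Col3a1 0.01 and P4ha2 0.04; P3h1 with Ang II in WT 0.05; P4ha2 under saline 0.13; under Ang II Plod1 0.02 and Plod2 0.08; and in the difference of responses Crtap -0.01 and Plod3 -0.02. With the library-number term they were Crtap with Ang II in Tg 0.01, Plod2 under Ang II 0.01 and Serpinh1 by sex -0.01. Plod2 under Ang II was 0.00 at a minimum FPKM of 5, and the slope of P4ha2 was 0.00 with mean log2 collagen and without libraries 329 and 847. Omission of 1 library gave ranges that cross 0: by sex Col1a1 -0.08 to 0.03, Col3a1 -0.14 to 0.01 and P4ha2 -0.03 to 0.01; with Ang II in WT P3h1 -0.04 to 0.01 and P4ha2 -0.02 to 0.05; under saline P4ha2 -0.06 to 0.02 and Plod1 -0.01 to 0.04; Plod2 under Ang II -0.03 to 0.02; the slope of P4ha2 -0.02 to 0.02; and Larp6 with Ang II in Tg -0.15 to 0.03. No paired analysis was possible because every library number occurs once and nothing pairs the mice. With 11 to 14 hearts a group, log2 SEs of the 9 genes in comparisons of genotype and treatment were 0.04 to 0.15. Differences within that error were not detectable. Larger ones could also fail to pass, such as 0.21 ± 0.07 for P4ha1 with Ang II in Tg hearts (adjusted p = 0.059 by edgeR).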
